A study of Equus caballus with 4 samples.

Results

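SPINK7 and SPINK9 encode small secreted inhibitors of serine proteases that carry a Kazal domain, and both were read here in equine sarcoids and in skin of the same animals. The members were chosen by accession: all non-control probes designed against a RefSeq transcript that the horse RefSeq gene table assigns to SPINK7 or SPINK9. This gave 10 of the 43603 probes of the array, 5 for each gene, and 2 of the 1031 genes that could be given a symbol. Both genes were picked because earlier results of these arrays placed them among the genes lowest in the sarcoids relative to skin. Their sarcoid to skin ratios are therefore described below with no test.

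The material came from 4 horses (horse 1 to horse 4). Each horse gave 1 sarcoid, a locally invasive fibroblastic tumour of horse skin, and 1 piece of skin taken at a distance from the tumour, which is the control. Each array carried the sarcoid RNA of a horse labelled with Cy3 and the skin RNA of the same horse labelled with Cy5, and 0 arrays had the dyes swapped, so that a dye effect of a probe cannot be told apart from the difference between tissues. No treatment, age or breed is given in the labels, and the descriptions of 3 samples mention embryonic stem cells, against their own tissue and horse fields, which were followed. The labels name each array a biological replicate.

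Kazal inhibitors bind the active site of serine proteases and block it. In the outer epidermis, kallikrein-related peptidases cut the junction proteins that hold cornified cells together, and inhibitors of the SPINK family hold those enzymes in check, so that shedding of the surface is gradual. SPINK9, also named LEKTI-2, is known as an inhibitor of the kallikrein KLK5 in human skin. SPINK7 is known from the lining of the human oesophagus, where it restrains epithelial proteases. In the horse RefSeq annotation both genes lie side by side, with 1 gene, a long non-coding RNA, between them.

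Between 67.2% and 78.5% of the probes were well above background in the sarcoid channel of an array and between 74.8% and 80.7% in the skin channel, by the scanner software's own flag. Negative control spots, which match no horse transcript, give the signal of an empty probe: their median lay between 65.0 and 71.0 scanner units in the sarcoid channel and between 53.0 and 59.5 in the skin channel. The local background next to those spots was lower, with medians of 22.2 to 23.0 and 44.5 to 47.0. A probe that reads about 65 in the sarcoid channel therefore holds no signal above an empty probe. Precision is limited by there being 4 arrays, and 0 probes were saturated.

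SPINK7 was read clearly in skin and faintly in sarcoid in every horse. The brightest of its 5 probes, A_69_P129429, gave skin signals of 1026, 1527.5, 1384.5 and 3126 scanner units in horses 1 to 4. The same spots gave sarcoid signals of 104, 90.0, 103 and 119. Skin was above sarcoid in every horse, the lowest skin value lay above the highest sarcoid value, and the sarcoid signals stayed within a narrow band not far above the negative controls. In pieces of whole tissue, fewer cells of a type and less RNA per cell cannot be told apart. All 5 probes exceeded the 95th percentile of the negative controls in the sarcoid channel of each horse. Of the 20 sarcoid readings of SPINK7 probes (5 probes on 4 arrays), 19 were flagged as well above background. The exception was probe A_69_P129430 in horse 3, which read 89.0.

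SPINK9 differed more between animals than SPINK7 did. Its brightest probe, A_69_P127261, gave skin signals of 18910.5, 2269.5, 3074 and 25723 scanner units in horses 1 to 4. The sarcoid signals of the same spots were 521, 69.0, 76.0 and 104. Skin was high in horses 1 and 4 and several-fold lower in horses 2 and 3, and the sarcoid of horse 1 was the only one with a strong reading. In the sarcoids of horses 1 and 4 all 5 probes were well above background. In those of horses 2 and 3 none of the 5 was flagged so, and the readings, from 64.0 to 72.0 in horse 2 and from 67.5 to 76.0 in horse 3, lay close to the negative control medians of 65.0 and 71.0. Of the 5 probes, 4 in horse 2 and 3 in horse 3 still exceeded the 95th percentile of the negative controls. In these 2 sarcoids SPINK9 was not well above background, so its level there is not known precisely.

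**Figure D1:**
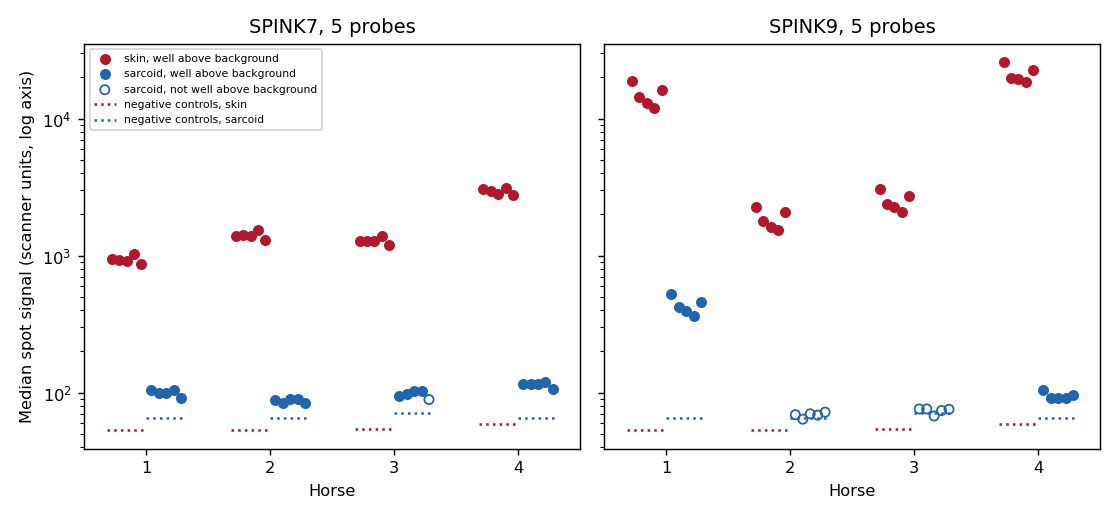
Median spot signal in scanner units (log axis) of the 5 SPINK7 probes (left) and the 5 SPINK9 probes (right) in each of 4 horses, with skin in red, sarcoid in blue and open circles for readings not well above background. Dotted lines are the negative control medians. Every skin reading lies above every sarcoid reading of the same gene, and the SPINK9 readings of sarcoids 2 and 3, from 64.0 to 76.0, lie close to the negative control line.

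The 5 probes of each gene are separate designs against 1 transcript, so they repeat the reading of a gene and are not replicates of the tissue. Within a horse they gave nearly the same ratio. The SD of the log2 ratio over the 5 SPINK7 probes was between 0.041 and 0.080 in the 4 horses. Over the 5 SPINK9 probes it was 0.048 in horse 1 and 0.12 in horse 4, and 0.23 and 0.19 in horses 2 and 3, whose sarcoid readings were not well above background.

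For the log2 ratios, background was modelled with normexp after leaving out spots marked as outliers, and each array was normalized by loess. SPINK7 had log2 ratios of sarcoid over skin of -3.63, -3.55, -3.65 and -3.54 in horses 1 to 4. Their mean was -3.59 ± 0.06 (SD, n = 4), which is a 12.05-fold higher skin level, and the other 4 probes had means from -3.46 to -3.55. SPINK9 had log2 ratios of -5.21, -4.47, -5.24 and -6.86. Their mean was -5.44 ± 1.01 (SD, n = 4), with the other 4 probes between -5.11 and -5.35. The SPINK9 ratio was lower than the SPINK7 ratio in each of the 4 horses; in horses 2 and 3 the size of the margin is not known, since SPINK9 was not well above background in those sarcoids.

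On levels of each channel, obtained after loess by a quantile normalization of the average intensity (Aquantile), skin exceeded sarcoid for SPINK9 by 37.0-fold in horse 1 and by 116-fold in horse 4. The values were 22.2-fold in horse 2 and 34.9-fold in horse 3, where the sarcoid was not well above background. There the sarcoid level was set to the higher of its own reading and the lowest level of any probe well above background. In horse 2 its own reading was the higher, so the value is the fold as read. These folds are of the brightest probe. The other SPINK9 probes gave smaller values, 15.6 to 19.8 in horse 2 and 23.6 to 31.0 in horse 3. None is a strict lower bound, since an unflagged probe can read above that lowest level. SPINK7 probe A_69_P129430 did so in horse 3, at 6.32 against 6.18. With normexp fitted to all spots, the log2 ratios of the brightest SPINK9 probe were -1.63 and -1.07 in horses 2 and 3. For SPINK7 the corresponding folds were 12.4, 11.7, 12.5 and 11.6 in horses 1 to 4. All 10 probes had every skin level above every sarcoid level. Of the 19574 targets with a level on all arrays, 13.1% showed that pattern, and nothing is read from the members' count, since the genes were chosen on this contrast. In the fit over all 19607 targets, a target being a gene with a symbol or otherwise an accession, 9.90% were lower and 5.84% higher in the sarcoids at a limma adjusted p under 0.05, 15.7% in either direction. These were 1941 lower and 1146 higher targets, against 2678 and 614 on median centring and 2025 and 1887 on processed signals. By the mean log2 ratio, SPINK9 stood at place 28 and SPINK7 at place 178 from the lowest of them.

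The size of the ratios depended on how background was treated, and so did the horse that stood apart. With the processed signals of the scanner software, which are background-subtracted and dye-normalized, the 5 SPINK7 probes had median log2 ratios of -5.22, -5.28, -5.02 and -4.39 in horses 1 to 4. The same medians for SPINK9 were -5.45, -8.23, -8.88 and -8.23. On this scale horse 1 had the smallest SPINK9 difference and lay close to its SPINK7 value, whereas after normexp the value of horse 2 was the closest to 0. The values of horses 2 and 3 rest on processed sarcoid signals with medians of 8.48 and 8.54, against 95th percentiles of the negative controls of 6.48 and 6.69. The brightest probe read 6.23 and 6.46, below those percentiles, and the other probes lay above them. None of the 5 probes was flagged well above background in either sarcoid.

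With normexp fitted to all spots, outlier spots included in the fit, the ratios shrank in 2 horses. SPINK7 then stood at -3.63, -1.22, -0.48 and -3.54, and SPINK9 at -5.21, -1.63, -1.07 and -6.86. Horses 1 and 4 hardly moved and horses 2 and 3 approached 0, without a change of sign. The SD of SPINK7 over the horses moved with the setting: it was 0.06 with outlier spots left out of the fit, 0.075 without background correction, 0.16 with a normexp offset of 16, 0.25 on median centring, 0.37 with the processed signals and 1.61 with all spots in the fit.

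**Figure D2:**
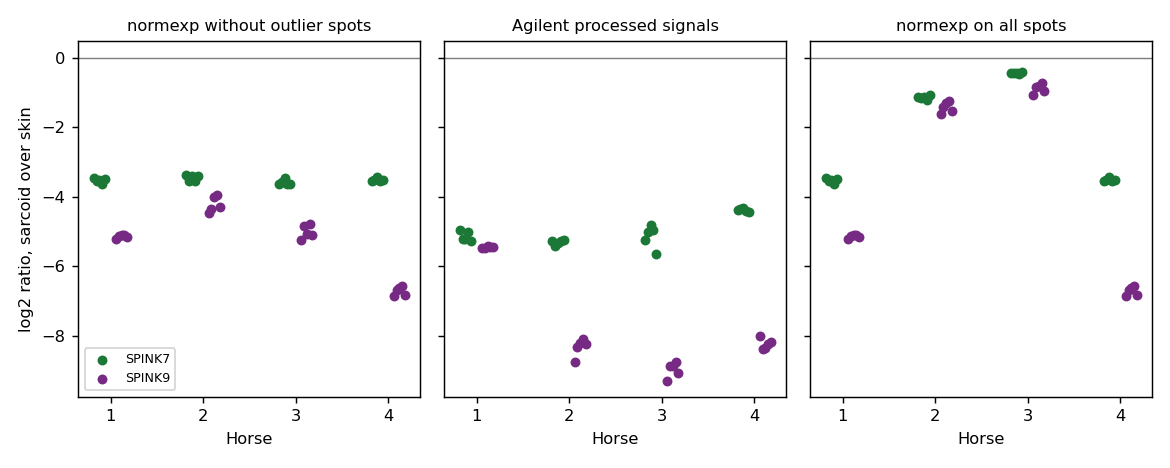
Log2 ratio of sarcoid over skin for each of the 5 probes of SPINK7 (green) and of SPINK9 (purple) in 4 horses, under 3 treatments of the background. All ratios are below 0 in each panel. SPINK9 lies below SPINK7 in each horse after normexp, with horse 1 the closest pair on processed signals and horses 2 and 3 near 0 where all spots entered the fit.

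The skin samples themselves differed widely in SPINK9. The Aquantile skin level of its brightest probe was 14.36, 10.75, 11.30 and 13.94 on the log2 scale in horses 1 to 4, a range of 12.2-fold and an SD of 1.82. Among 17885 targets well above background in all 4 skin samples, the median SD was 0.21 and 0.313% had an SD at least as large as that of SPINK9. The range was 16.5-fold on processed signals and 11.3-fold on signals as scanned, where 0.492% and 0.486% of the targets varied as much. Horses 1 and 4 were the high ones on each of the 3 scales, horse 1 being highest after Aquantile and on processed signals and horse 4 on signals as scanned.

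SPINK7 varied little by comparison. Its skin level was 10.14, 10.19, 10.15 and 10.99, a range of 1.81-fold with an SD of 0.42, which 15.9% of the 17885 targets reached. Only horse 4 stood above the others, and this depended on the scale: the range was 1.41-fold on processed signals, where horses 1 and 4 were almost equal at 2537 and 2560, and 3.05-fold on signals as scanned.

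**Figure D3:**
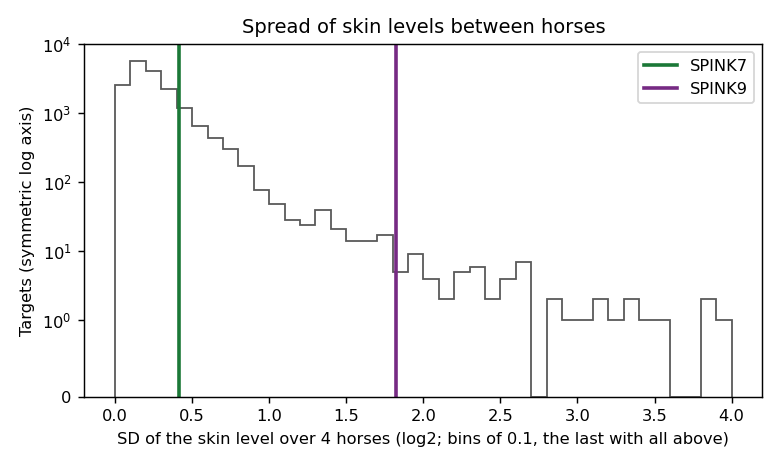
Number of targets (symmetric log axis) by the SD of their skin level over 4 horses, for the 17885 targets well above background in all 4 skin samples. SPINK9, at an SD of 1.82, lies in the sparse right tail, and SPINK7, at 0.42, lies to the right of the median of 0.21.

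Sarcoid levels of SPINK9 were 9.15, 6.28, 6.06 and 7.08 in horses 1 to 4, the values of horses 2 and 3 not being well above background. Horse 1 had the highest sarcoid level, and the pair of horses with low skin levels had sarcoids with no reading flagged as well above background. Sarcoid levels of SPINK7 were 6.51, 6.64, 6.50 and 7.45, and only horse 4 was set apart. With 4 horses no relation between skin and sarcoid levels was tested.

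Other genes of the protease balance could be followed only sparsely, because the array names most probes by an identifier that the gene table used here does not hold. None of the 8 other SPINK genes listed had a probe with a symbol. Of 38 listed genes of surface shedding and of serine proteases, 2 were measured by name, KLK1 and PLAUR, and neither passed the test. No statement on the enzymes of shedding is drawn from these 2. KLK1, the tissue kallikrein that releases kinins, was at -0.17, -0.07, 0.98 and -0.32 in horses 1 to 4, with a mean of 0.11 ± 0.59 (SD, n = 4; limma adjusted p = 0.813). PLAUR, the receptor of urokinase, was at 2.58, 0.38, 0.26 and -1.57, with a mean of 0.41 ± 1.70 (limma adjusted p = 0.716). The horses disagreed in sign for both. Of 32 other protease inhibitors of the epidermis 1 was measured: SERPINB1, an inhibitor of neutrophil proteases, was at 0.02, -0.22, 1.33 and 0.83 (mean 0.49 ± 0.72, SD, n = 4; limma adjusted p = 0.315).

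Neighbours in the RefSeq gene order gave little to set beside the pair. HTR4, a serotonin receptor gene among the 10 annotated genes on that side of both SPINK genes and nearer to SPINK9, was at -0.28, 0.04, -0.18 and 0.05 in horses 1 to 4. Its mean log2 ratio was -0.09 ± 0.16 (SD, n = 4) and did not pass (limma adjusted p = 0.66), with 2 of the 4 ratios below 0.

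Epithelial genes were lower along with the SPINK genes. Of 14 measured genes from the lists of basal keratinocytes and adhesion, of activated keratinocytes and antimicrobial proteins, and of hair follicle and glands, 9 fell, 0 rose and 5 did not pass, with a median log2 ratio of -2.48. The median of all targets was 0.0035, and 9.90% of them were lower. KRT15, a keratin of basal keratinocytes, fell, at a log2 ratio of -5.12 ± 0.11 (SD, n = 4) and a limma adjusted p = 6.28e-05. CA6, a secreted carbonic anhydrase, fell too, at -3.53 ± 0.36 (limma adjusted p = 0.000403). KLF4, a transcription factor of differentiating epidermis, fell by 1.19 ± 0.59 (limma adjusted p = 0.0312), a call lost without horse 2, 3 or 4. With all spots in the background fit, 3 of the 14 were lower, namely IL1R2, KRT15 and LATH, and the median was -1.59.

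The log2 ratio of 5 of the 14 genes was at or below that of SPINK7, and that of 1, LATH (latherin, a surfactant protein of horse sweat), was at or below that of SPINK9. The median over the 14 genes was -2.44, -1.999, -3.18 and -3.21 in horses 1 to 4. Their mean level on the log2 scale was between 10.92 and 11.86 in skin and between 8.15 and 8.95 in sarcoid, and 11 of them were well above background in all 4 sarcoids. IL1A was well above background in 0 of the 4 sarcoids. None of the 42 listed genes of the cornified and suprabasal epidermis could be measured by name, so the outer epidermis was not checked by its own markers. The part of the epithelial genes in the SPINK values was not tested.

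Fibroblast and matrix genes moved the other way in the same ratios. All 8 measured members rose, with a median log2 ratio of 2.60, where 5.84% of all targets were higher; with all spots in the background fit 3 of the 8 rose, and on median centring 6. BGN, which encodes the proteoglycan biglycan, rose by 3.06 ± 0.61 (SD, n = 4; limma adjusted p = 0.00193). Of 6 melanocyte genes 2 fell and 4 did not pass, 0 of 3 endothelial genes passed, and of 5 leukocyte genes 1 rose and 4 did not pass. The call was CSF1R, a receptor of macrophages, at 1.24 (limma adjusted p = 0.0199); it was lost on median centring (0.0762), with all spots in the background fit (0.265), and without horse 2 (0.0674) or horse 3 (0.0502), these being limma adjusted p-values. The reference genes ACTB and GAPDH were at -0.34 ± 0.45 and 0.27 ± 0.48 and did not pass (limma adjusted p = 0.313 and 0.433). On median centring ACTB was at -1.01 and passed (limma adjusted p = 0.0176), and GAPDH turned to -0.41 (limma adjusted p = 0.198).

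**Figure D4:**
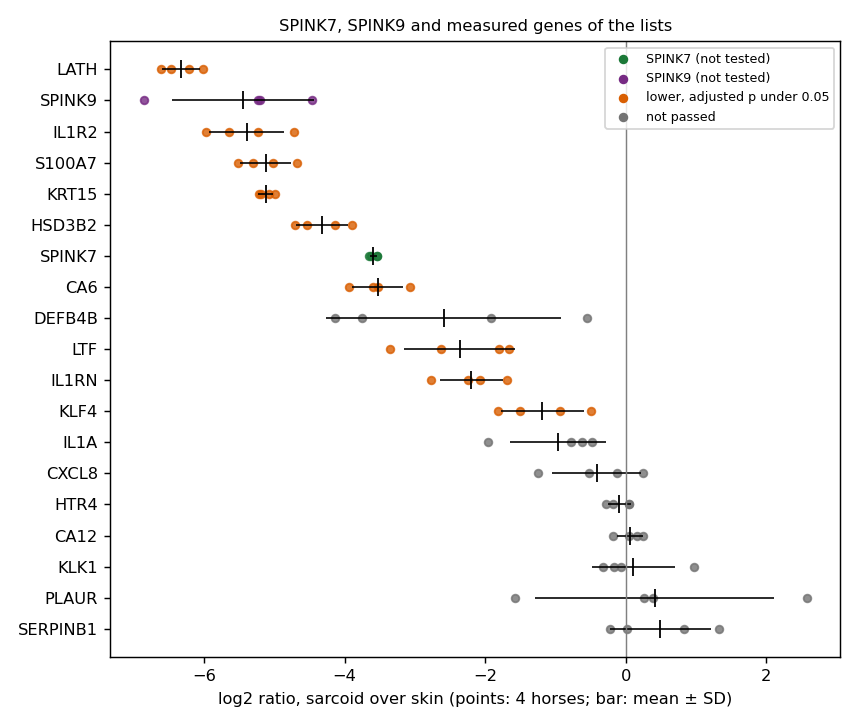
Log2 ratio of sarcoid over skin in 4 horses (points) with mean and SD (bars) for SPINK7, SPINK9 and named genes of the epithelial, protease, inhibitor and neighbouring lists. SPINK9, at -5.44, is lower than all but LATH, the points of SPINK7 coincide near -3.59, and the protease KLK1, the urokinase receptor PLAUR and the inhibitor SERPINB1 scatter around 0.

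The genes with the most similar ratios were found by the root mean square difference over the 4 log2 ratios, among 844 other genes with a symbol. For SPINK7 these were LOC100034197 (difference 0.27), CA6 (0.28), LOC102149791 (0.36) and C14H5orf46 (0.42). LOC names are loci that the gene table leaves unnamed. C14H5orf46 was at -2.84, -3.65, -3.87 and -3.73 in horses 1 to 4, and 17 annotated genes lie between it and SPINK7. For SPINK9 they were S100A7 (0.69), KRT15 (0.87), LOC100053832 (1.01) and LOC100034175 (1.15). The nearest genes of SPINK9 were thus farther from it than those of SPINK7 were from SPINK7.

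S100A7, the antimicrobial protein psoriasin of keratinocytes, was near SPINK9 on a second measure, which was chosen after the values had been seen. When the skin level of each gene was centred on its mean over the horses, S100A7 was the closest to SPINK9 of 770 genes with a symbol and a clear skin reading, with a root mean square difference of 0.43. Its skin level was 16.02, 13.38, 13.48 and 16.68 in horses 1 to 4, high in horses 1 and 4 like that of SPINK9. DEFB4B, IL1A, IL1RN and CXCL8 of the same list also lay above their own mean in horses 1 and 4 and below it in horses 2 and 3, by smaller amounts, IL1A by 0.052 in horse 4. On processed signals the skin values of IL1A were 527, 42.8, 49.1 and 75.3, so its place in horse 4 depended on the scale. The keratin KRT15, at 15.03, 14.69, 14.99 and 14.03, did not share that order. LTF, the iron-binding antimicrobial protein lactoferrin, was at 10.18, 8.33, 8.29 and 14.47, and its highest value was in horse 4. It was likewise higher in horses 1 and 4 than in horses 2 and 3, but its centred level in horse 1 was -0.14. IL1R2, the decoy receptor of interleukin 1, was at 14.16, 14.01, 14.62 and 13.60 and was lowest in horse 4.

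**Figure D5:**
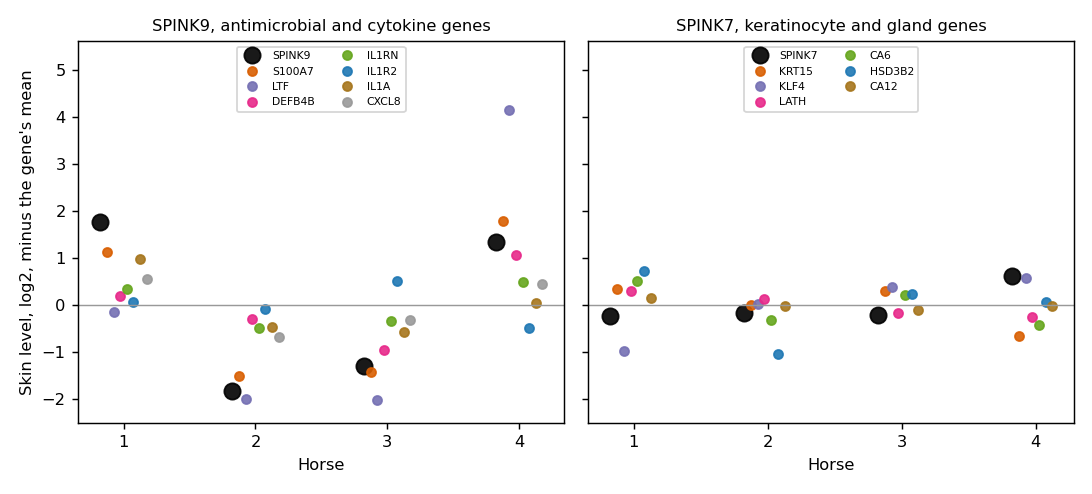
Skin level on the log2 scale, minus the mean of the gene over 4 horses, for SPINK9 with the 7 measured antimicrobial and cytokine genes (left) and SPINK7 with 6 keratinocyte and gland genes (right). SPINK9 and S100A7 lie above 0 in horses 1 and 4 and below it in horses 2 and 3. So do DEFB4B, IL1A, IL1RN and CXCL8. LTF and IL1R2 do not, LTF being at -0.14 in horse 1. SPINK7 departs upward in horse 4 alone.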

How the data were processed

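The study hybridised 4 Agilent horse arrays of 45220 features, 1 per horse. The deposited files hold spot and local background intensity per channel on a linear scale, with flags as other columns, per the file headers. The submitters' processing notes name Agilent Feature Extraction 11.5.1.1 as the software. The deposited log10 ratio is Cy5 over Cy3; the authors' value table holds the same log10 ratio (largest difference 0). A median signal per spot was used. Spots marked as feature or background non-uniform or as population outliers were left out, background was corrected by normexp (offset 50) and each array's ratios were then loess-normalized, control spots having weight 0 (limma 3.58.1, R 4.3.3). Ratios were turned to sarcoid over skin. Leaving outlier spots out before, not after, the background fit was chosen with results known and gives many more calls.

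Probes were kept if 3 or more of the 4 arrays flagged them well above background in 1 channel, with the brightest probe per gene; all 10 SPINK probes passed. Ratios were tested against 0 by limma (lmFit, eBayes; two-sided) and p-values adjusted over all targets by Benjamini-Hochberg; the script was tested on simulated data. Of 3437 probes with a RefSeq accession, 2332 matched the gene table. That table uses another genome build than the array, so no coordinates are given, and no sequence was at hand. The members and lists were chosen with earlier results of these data known. Named genes are the members, measured SPINK, protease, inhibitor and neighbouring genes, up to 4 called genes of each other list (2 where none passed), the 4 nearest patterns, ACTB and GAPDH; only those that bear on the SPINK genes are described. IL1A, DEFB4B and CXCL8 were chosen after their values were seen. Some genes that this rule names are not reported here.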

Additional observations from a re-analysis of the deposited data

Results flagged for a closer look

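In a group of 4 samples a value stands apart when its gap to the nearest other, divided by the whole range, exceeds the 95% limit of Dixon's test, which chance gives in about 1 of 20 groups. Of 31 sets of 4 values examined, 4 did so. The SPINK7 skin level was set apart by horse 4 (gap over range 0.941), at 10.99 against 10.14 to 10.19, and the SPINK7 sarcoid level likewise (0.856), at 7.45 against 6.50 to 6.64. On processed signals the SPINK7 skin value of horse 4 was 2560 against 2537 in horse 1. Among 770 genes with a symbol, the 4 nearest to SPINK7 in centred skin level were IL12A, GPR21, NSMCE2 and PPARA. Their root mean square differences were 0.035 to 0.067. All 4 were highest in horse 4, so the shift was not particular to SPINK7. IL12A was dim, at 6.54, 6.50, 6.48 and 7.32 in horses 1 to 4. The log2 ratio of BGN was set apart by horse 1 (0.869), at 3.98 against 2.67 to 2.85. The log2 ratio of SPARC, a collagen-binding matrix protein, was set apart by horse 4 (0.852), at 1.20 against 3.36 to 3.74.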

How the results depend on the processing

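Both SPINK genes stayed below 0 under every alternative run. The log2 ratios of SPINK7 and SPINK9 were -2.22 and -3.69 with normexp fitted to all spots, -2.22 and -3.69 with outlier spots kept, and -4.91 and -7.76 with processed signals. SPINK7 was at -2.99 without background correction, -3.79 on median centring, -4.20 with offset 16 and -3.51 as the median of its probes. Without each horse in turn SPINK7 lay between -3.61 and -3.57 and SPINK9 between -5.77 and -4.97. Of 19607 targets, 1146 were higher and 1941 lower; with normexp on all spots 93 and 147 were, with outlier spots kept 94 and 147. Median centring left 614 higher, and processed signals gave 1887. Without a horse in turn the counts lay between 389 and 820 higher (389 without horse 1, 591 without horse 2, 673 without horse 3) and between 1077 and 1415 lower (1077, 1173 and 1255). Of the 41 measured list genes 21 passed, against 6 with normexp on all spots and 6 with outlier spots kept, and 18 to 20 without a horse. No call of a named gene changed sign. KLF4 did not pass without horse 2, 3 or 4 (limma adjusted p = 0.0878, 0.0775 and 0.0995). Each ratio is taken within a horse, so the test is paired; with the channels modelled separately (spot correlation 0.32) 1570 targets were higher, 2520 lower and 22 list genes passed, LTF no longer (limma adjusted p = 0.179). The lowest signals set the limit: ratios of SPINK9 in horses 2 and 3 rest on sarcoid readings not well above background, and their size is uncertain.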

Other observations

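Of the 17885 targets with a clear skin reading, 56 varied between the 4 skin samples at least as much as SPINK9, SPINK9 included, and 8 of them had a symbol. The others were RN28S, LTF, FOS, LOC100065223, LOC100053358, EQMHCC1 and CLCA1. RN28S, a ribosomal RNA, had skin levels of 16.77, 16.49, 16.55 and 9.86 in horses 1 to 4, and FOS, an immediate early gene, had 11.59, 16.30, 15.80 and 16.04, so different horses were set apart. After S100A7, the genes nearest to SPINK9 in centred skin level were MMP3, a matrix metalloproteinase (root mean square difference 0.64), and the chemokines CCL13 (0.87) and CCL2 (1.00). The skin level of MMP3 was 11.09, 8.83, 8.50 and 10.31. These genes were named after their values had been seen, and no relation was tested.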
